A study of Mus musculus with 4 samples.

Results

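The 10 genes described here encode the core of the NF-kB pathway. They are the 5 DNA-binding subunits (Nfkb1, Nfkb2, Rel, Rela and Relb), the inhibitors that hold the subunits in the cytoplasm (Nfkbia and Nfkbie), the kinase that marks those inhibitors for removal (Ikbkb), and a pair of ubiquitin-dependent brakes (Tnfaip3 and Tnip1). They were chosen by name, as the rows of the deposited gene table whose gene name is one of the 10, and each name had 1 row among the 29286 rows of the table. The data came from a conditionally immortalised mouse podocyte line, 1 cell line that carries a thermosensitive T antigen and models the epithelial cells of the glomerular filter. The cells were differentiated for 12 days in normal-glucose medium and transfected, with a lipid reagent and at 50 nM, with a mimic of miR-93 or with a control mimic without a target (NT, nontargeting), and RNA was extracted after 48 h. Each mimic was given to 2 samples, each sequenced as 1 library. Apart from the mimic, the labels describe the same treatment for both groups. The aim of the experiment was to find transcripts that differ when miR-93 is raised in podocytes.

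The deposited table gives 1 FPKM value per gene and group, pooled by the authors over the libraries of the group. FPKM is the number of sequenced fragments of a gene scaled by its transcript length and by the size of the library. No value per library was analysed here, so depth is unknown, no spread between replicates could be computed from the FPKM values, and no difference below is given with a test. The table also holds the results of the authors' own test over the libraries, which were not used here. The libraries are biological replicates by the study's methods, and nothing in the labels tells if separate cultures were used. The titles number the samples of each group 1 and 2, but the descriptions call both samples of a group replicate 1, so the labels are not uniform on what a replicate is. In the table the conditions are called q1 and q2, and q1 is read here as the miR-93 mimic and q2 as the NT mimic because the header of the deposited log2 column divides q1 by q2 and the study's plot axis divides the miR-93 mimic by the NT mimic. Every direction below rests on that reading. Among expressed genes with an annotated 3′ UTR, 22.5% held a 7- or 8-base match to the miR-93 seed. Of these genes, 198 of 372 (53.2%) that were lower by the fold used below held one, and 11 of 155 (7.1%) that were higher. In RNA from a whole culture, fewer cells that use a gene and less RNA of it per cell cannot be told apart.

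NF-kB is a family of dimeric transcription factors that switch on inflammatory, survival and immune genes. In resting cells the dimers are held in the cytoplasm by IkB proteins. Signals from the TNF, interleukin-1 and Toll-like receptors activate the IkB kinase complex, IkB is phosphorylated and degraded, and the freed dimers enter the nucleus, where they also induce their own inhibitors and so limit the response. A second, non-canonical branch runs through the processing of the Nfkb2 precursor and the subunit RelB. In the kidney, NF-kB activity in podocytes is known for its part in glomerular inflammation and in diabetic injury.

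A microRNA such as miR-93 pairs with matching sites in the 3′ UTR of messenger RNAs, mainly through its seed, and lowers their stability or translation. The mature microRNA is shown because its seed sets which bases were searched for in the 10 genes (RefSeq, GRCm38.p6, chromosome 5, seed bases 2 to 8 in capitals):
mmu-miR-93-5p: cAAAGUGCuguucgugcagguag
A match was called an 8mer (GCACTTTA, the complement of the seed followed by A), a 7mer-m8 (GCACTTT), a 7mer-A1 (CACTTTA) or a 6mer (CACTTT), and each gene was placed by the best match in its longest annotated 3′ UTR (GENCODE M21, GRCm38).

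Ikbkb was the only one of the 10 genes with a match of 7 or 8 bases. Its 3′ UTR of 1622 bases held a 7mer-m8 at bases 371 to 377 and an 8mer at bases 587 to 594, counted from the first base after the stop codon. Both lie on the minus strand of chromosome 8, at chr8:22661002-22661031 and chr8:22660786-22660815 (GRCm38). They are shown with the matched bases in capitals because they are the only matches of 7 or 8 bases among the 10 genes:
Ikbkb 7mer-m8: gccacgatccagGCACTTTcagacagagct
Ikbkb 8mer: cactacttgcttGCACTTTAgccagagaaa
Of the 3 annotated coding transcripts of Ikbkb with a 3′ UTR, 1 held these matches, and the shortest 3′ UTR (528 bases) held none. Which of the transcripts the podocytes use was not measured in the table. Rel, with the longest 3′ UTR of the 10 (5418 bases), held 6mers at bases 3748 to 3753 and 3835 to 3840 and nothing longer. The other 8 genes held no match, not even of 6 bases, in 3′ UTRs of 336 bases (Relb) to 1821 bases (Tnfaip3). Of all 10031 expressed genes with a 3′ UTR, 2257 (22.5%) held a match of 7 or 8 bases, 461 (4.6%) held an 8mer and 5799 (57.8%) held no match, against 1, 1 and 8 of these 10 genes.

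**Figure D1:**
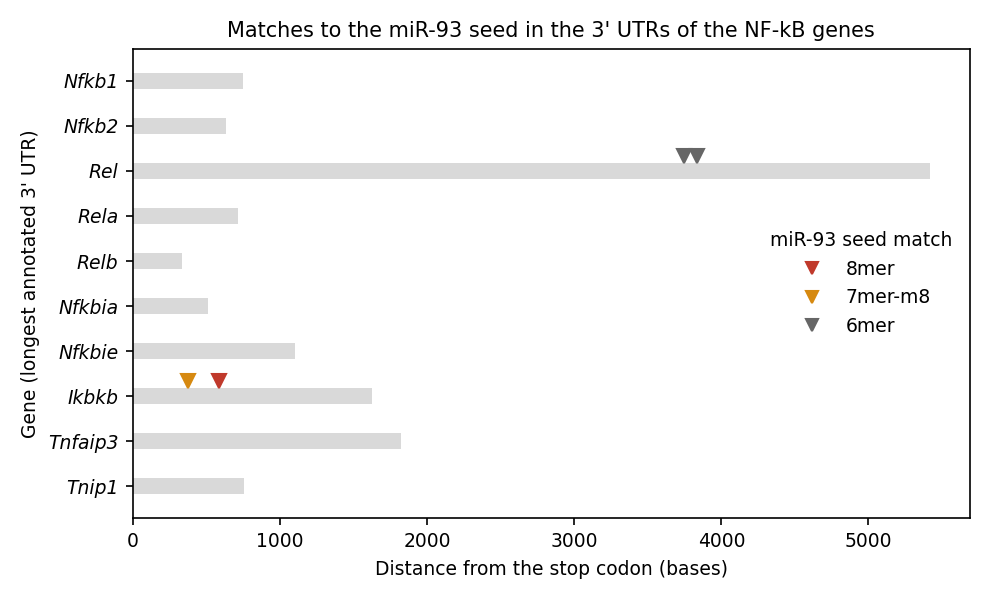
Each bar is the longest annotated 3′ UTR of 1 gene, drawn to scale in bases from the stop codon, and triangles mark matches to the miR-93 seed by class. Ikbkb alone has an 8mer and a 7mer-m8, Rel has a pair of 6mers in a 3′ UTR of 5418 bases, and the other 8 genes have none.

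All 10 genes had values above 0 in both groups, and the groups differed little. Of the 10, 7 had a lower FPKM with the miR-93 mimic and 3 a higher one, on a background in which 69.5% of all expressed genes were lower. Differences are given as log2((miR-93 FPKM + 0.1)/(NT FPKM + 0.1)), a scale that understates differences of genes with low levels, and ran from -0.28 (Relb) to 0.12 (Nfkbie). A gene was called expressed when its mean FPKM in the table, taken over both groups, was at least 1, which 9 of the 10 genes reached and Rel did not. None of the 9 passed the fold used for the whole table, a difference of at least 0.5 on the log2 scale (1.41-fold) in either direction. Over all genes, 3.83% of the 10855 expressed gene rows (416) were lower by at least that fold and 1.81% (197) were higher, so a count of 0 in 9 is near what those shares would give.

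Rela, the transactivating subunit of the classical dimer, had the highest level of the 10 genes, at 35.9 FPKM with the miR-93 mimic and 35.3 FPKM with the NT mimic. The difference was 0.02 on the log2 scale, the smallest of the 10. Its row lies at 5637490 to 5648130 on chromosome 19 (mm9, as are the positions of all rows below). Nfkb1, which encodes the p105 precursor of p50, the usual partner of RelA, stood at 22.3 FPKM with miR-93 and 23.9 FPKM with NT, a log2 difference of -0.10 (chromosome 3, 135247617 to 135354574). Both genes of the classical dimer therefore had nearly the same level in the groups, with an Nfkb1 to Rela ratio of FPKM of 0.622 with miR-93 and 0.677 with NT.

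Nfkb2, which encodes the p100 precursor of p52, stood at 21.8 FPKM with miR-93 and 23.2 FPKM with NT (log2 -0.09, chromosome 19, 46378075 to 46401646). The same locus also carries rows for Psd and LOC100503392, at 0.51 and 4.26 FPKM with miR-93 and 0.425 and 3.48 FPKM with NT. Reads from overlapping genes may be split between them, so the Nfkb2 value is less certain than those of the other 9 genes, whose loci overlap no other row. Relb, which encodes the main nuclear partner of p52, had 4.83 FPKM with miR-93 and 5.9 FPKM with NT (chromosome 7, 20191571 to 20214787). This was 18.1% lower, or -0.28 on the log2 scale, the lowest difference of the 10, and 14.1% of expressed rows had a lower one. Relb has no seed match in its 3′ UTR. The ratio of Nfkb2 to Relb in FPKM was 4.51 with miR-93 and 3.93 with NT.

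Rel encodes c-Rel, a subunit known mainly from lymphoid cells. It had the lowest level of the 10 genes and lay under the floor of 1 FPKM used here, at 0.712 FPKM with miR-93 and 0.788 FPKM with NT (log2 -0.13, chromosome 11, 23639155 to 23670997). Rela exceeded Rel 50.4-fold with miR-93 and 44.8-fold with NT on the FPKM scale, which is per length. The summed FPKM of the 5 subunits was 85.5 with miR-93 and 89.1 with NT. Rela made up 41.9% and 39.6% of these sums, Nfkb1 26.1% and 26.8%, and Nfkb2 25.5% and 26%. Relb made up 5.65% and 6.62%, and Rel 0.832% and 0.884%. The order of the subunits was the same in both groups.

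The inhibitor genes were, with Rela, the genes whose values were higher with miR-93. Nfkbia encodes IkB alpha, the inhibitor that NF-kB induces most directly, and had 13.6 FPKM with miR-93 and 13.1 FPKM with NT (log2 0.05, chromosome 12, 56590396 to 56593634). Nfkbie encodes IkB epsilon, which acts more slowly in the same feedback, and had 2.4 FPKM with miR-93 and 2.21 FPKM with NT (log2 0.12, chromosome 17, 45692665 to 45700118). The difference for Nfkbie was 8.9% on the FPKM scale, and 86.4% of expressed rows had a lower log2 value. The Nfkbia to Rela ratio of FPKM was 0.378 with miR-93 and 0.372 with NT, and the Nfkbie to Rela ratio was 0.067 and 0.0625. The level of either inhibitor relative to Rela was thus nearly the same in the groups.

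Ikbkb encodes IKK beta, the kinase that phosphorylates IkB alpha in the classical pathway, and is the member with the 8mer and 7mer-m8 shown above. It had 19.6 FPKM with miR-93 and 23.3 FPKM with NT (chromosome 8, 23769677 to 23817055). This was 15.6% lower, or -0.24 on the log2 scale and -0.16 once the median of all expressed rows (-0.09) was subtracted. It stood second to Relb in the order of differences, and 18.1% of expressed rows had a lower value. Whether this difference exceeds the spread between libraries was not tested here, since the FPKM values are pooled and the authors' test columns were not used.

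Tnfaip3 encodes A20, a ubiquitin-editing enzyme that shuts off signalling to the IkB kinase and is itself induced by NF-kB. It had 25.6 FPKM with miR-93 and 27.5 FPKM with NT (log2 -0.10, chromosome 10, 18720716 to 18735216), the second highest level of the 10 genes in each group. Tnip1, which encodes an adaptor that binds A20 and ubiquitin chains, followed with 23.4 FPKM with miR-93 and 26.6 FPKM with NT (log2 -0.18, chromosome 11, 54724289 to 54776440), a value 11.8% lower. Both brakes thus had higher levels than Nfkbia in each group.

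**Figure D2:**
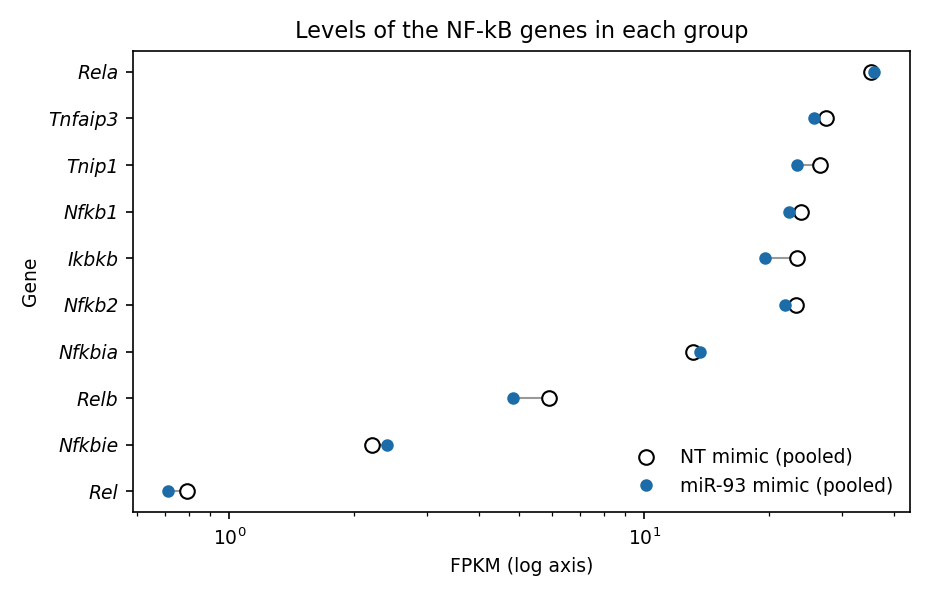
FPKM of each gene on a log axis, with an open circle for the NT mimic and a filled circle for the miR-93 mimic, each the authors' value pooled over 2 libraries. The circles of a gene lie close together, from Rela at 35.9 and 35.3 FPKM to Rel at 0.712 and 0.788 FPKM, and the widest gaps are those of Relb and Ikbkb.

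The order of levels with NT was Rela, Tnfaip3, Tnip1, Nfkb1, Ikbkb, Nfkb2, Nfkbia, Relb, Nfkbie and Rel. With miR-93 it differed only in that Nfkb2 stood above Ikbkb. From Tnfaip3 down to the sixth gene the levels lay within a factor of 1.31 with miR-93 and 1.19 with NT, so the order among these 5 genes cannot be taken as firm without values per library. Rela above them and Nfkbia, Relb, Nfkbie and Rel below them were set apart by larger steps.

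The median log2 difference of the 9 expressed members was -0.10, against -0.09 for all 10855 expressed rows, and 5 members lay below and 4 above that overall median. Of all expressed rows, 72.3% lay within the range of the members. At a mean level of 10 to 50 FPKM the table held 4266 rows, of which the lower and upper quartiles of log2 were -0.20 and 0.01, and 4 of the 7 members at that level lay inside those bounds. The other 3 were Ikbkb below them and Rela and Nfkbia above. At 1 to 10 FPKM (5162 rows) the bounds were -0.20 and 0.07, with Relb below and Nfkbie above. All 9 expressed members lay inside the 5th and 95th percentiles of the rows at their own level, which were -0.43 and 0.20 in the higher band and -0.47 and 0.38 in the lower.

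**Figure D3:**
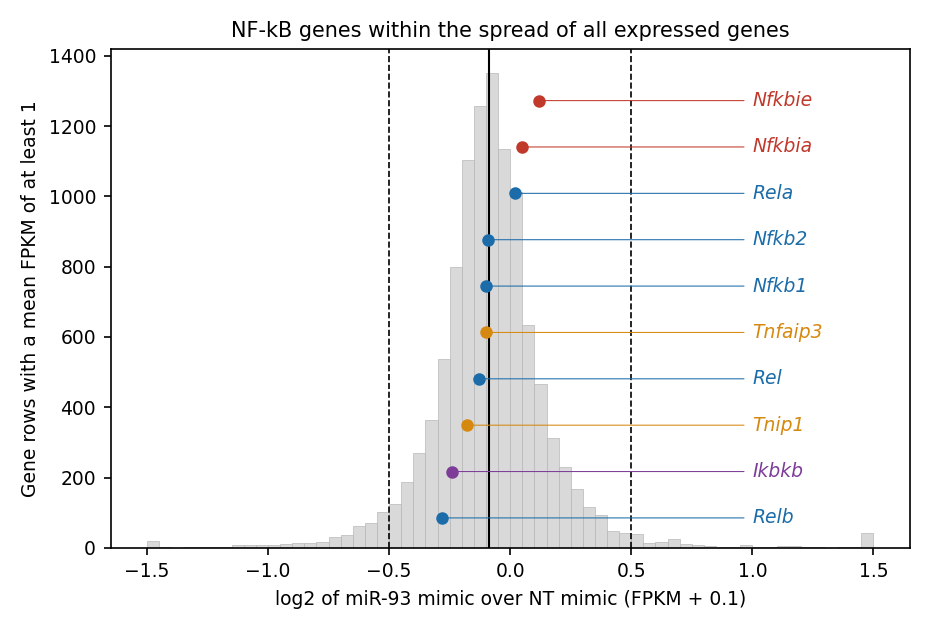
The histogram counts expressed gene rows by their log2 difference, miR-93 mimic over NT mimic, with values beyond 1.5 in either direction gathered in the end bars. The solid line is the median of all rows (-0.09) and the dashed lines the fold of 0.5 on the log2 scale, and the 10 genes, placed at arbitrary heights and coloured by role, all fall between the dashed lines.

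Genes that work around the 10 were taken from 7 lists with 90 genes, of which 70 were expressed in a row of their own. Of these 70, 9 (12.9%) were lower with miR-93 by at least the fold and 0 were higher, against 3.83% and 1.81% of all expressed rows. Their median log2 difference was -0.15, against -0.09 for all rows, with 43 genes below and 27 above that overall median. The lists were written with earlier results of these data known, so the counts are a description only.

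Among the partners of Ikbkb in the IkB kinase complex, Chuk (IKK alpha, which also activates the non-canonical branch) had 18.5 FPKM with miR-93 and 19.3 FPKM with NT, a log2 difference of -0.06. Ikbkg, the regulatory subunit NEMO, had 8.08 and 11.4 FPKM, a log2 difference of -0.49 that lay just short of the fold. Of the 12 genes of the kinase list, all expressed, none passed the fold and 6 lay below and 6 above the median of all rows. Of the 3 subunits of the complex, Ikbkg thus had the lowest ratio and Chuk a value near that of the table as a whole. The longest 3′ UTR of Ikbkg (5495 bases) held matches of the 7mer-m8 and 7mer-A1 classes, and the shortest (388 bases) held none. Among further inhibitors, Nfkbib (IkB beta) had 12.2 FPKM with miR-93 and 13.4 FPKM with NT (log2 -0.13). Nkiras1, a small Ras-like protein that slows the degradation of IkB beta, had 1.39 and 2.65 FPKM (log2 -0.88) and was the only 1 of 6 expressed genes of its list past the fold.

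Upstream of the kinase, 1 of 10 expressed receptor genes and 2 of 15 expressed adaptor genes were lower by the fold. The share over all expressed rows was 3.83%. The receptor was Tnfrsf1b, the second TNF receptor, with 3.75 FPKM with miR-93 and 5.5 FPKM with NT (log2 -0.54), whereas Tnfrsf1a, the main TNF receptor, had 52.2 and 55.1 FPKM (log2 -0.08). The adaptors were members of the IRAK family, which relays interleukin-1 and Toll-like receptor signals. Irak2 had 8.53 FPKM with miR-93 and 14.2 FPKM with NT (log2 -0.73), and Irak4 had 3.93 and 6.06 FPKM (log2 -0.61). Irak1 shares its row with a microRNA gene and was not counted. The receptor list had a median log2 difference of -0.20 with 8 genes below the median of all rows and 2 above, and the adaptor list one of -0.17 with 11 below and 4 above. The 9 expressed partners of A20 and deubiquitinases, by contrast, had a median of -0.06 with 2 below and 7 above and none past the fold. Cyld, a deubiquitinase that opposes the pathway, had 21.8 FPKM with miR-93 and 19.3 FPKM with NT (log2 0.17). The longest 3′ UTR of Cyld holds an 8mer, and the shortest a 7mer-A1 as its best match.

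Of 30 genes known as NF-kB targets, Cfb shared its row with C2 (log2 -0.46) and was not counted. Of the other genes 16 were expressed. Of these, 4 were lower by the fold and 0 higher, against 3.83% and 1.81% of all expressed rows. Csf1, the growth factor of macrophages, had 253 FPKM with miR-93 and 421 FPKM with NT (log2 -0.73). Ccl7, a monocyte chemokine, had 2.48 and 4.64 FPKM (log2 -0.88). Ptgs2, the inducible cyclooxygenase, had 16 and 23.6 FPKM (log2 -0.56), and Irf1, an interferon regulatory factor, had 35.3 and 51 FPKM (log2 -0.53). The 16 genes had a median of -0.16, with 11 below and 5 above the median of all rows, and the highest was the complement gene C3, with 4.53 FPKM with miR-93 and 3.56 FPKM with NT (log2 0.34). The feedback genes Nfkbia and Tnfaip3, also targets of NF-kB but outside the 30, had log2 differences of 0.05 and -0.10. The target genes thus did not share 1 direction or size. Tnf and Cxcl2 were listed at 0 in both groups, and Il6 had 0.434 FPKM with miR-93 and 0.286 FPKM with NT, so several well-known targets were too low to compare.

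The MSK kinases, which phosphorylate RelA in the nucleus, formed a list of 2 genes. Rps6ka4 (Msk2) had 9.68 FPKM with miR-93 and 14.7 FPKM with NT (log2 -0.60), and was singled out by the study on these same samples, so its direction is not independent evidence. Rps6ka5 (Msk1) had 1.64 and 1.98 FPKM (log2 -0.26), and both its longest and its shortest 3′ UTR hold an 8mer.

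**Figure D4:**
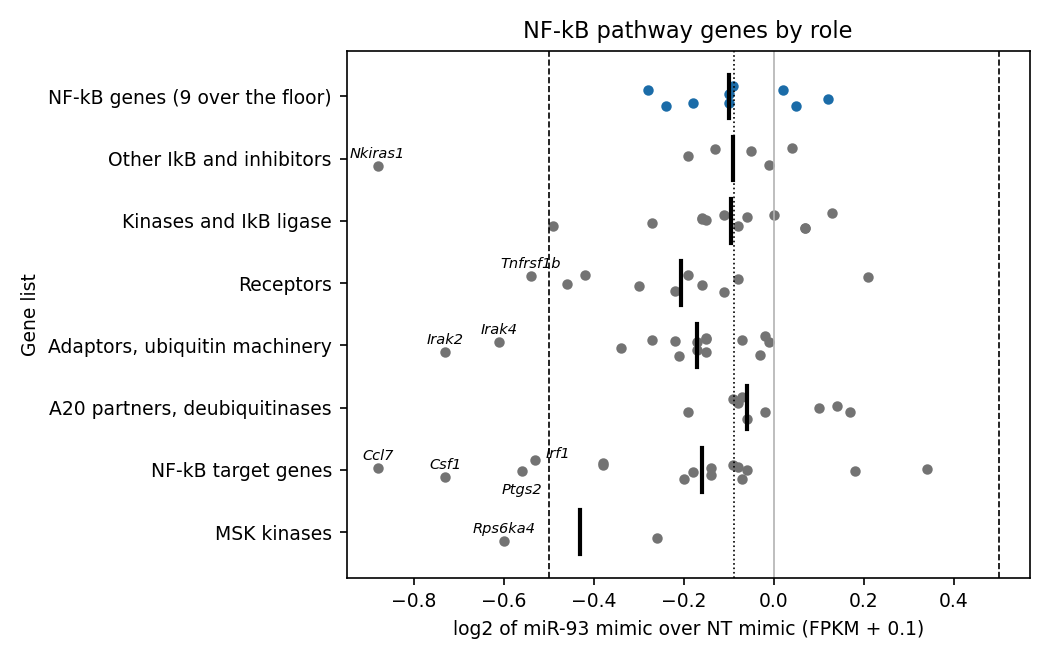
Each point is 1 expressed gene at its log2 difference, miR-93 mimic over NT mimic, by list, and short bars are list medians. The dotted line is the median of all expressed rows (-0.09) and the dashed lines the fold of 0.5 on the log2 scale, and the 9 genes with names are those past the fold, all on the lower side and none of them among the NF-kB genes of the top line.

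Of the 70 expressed pathway genes, 20 (28.6%) held a 7- or 8-base match to the miR-93 seed in the longest 3′ UTR, and of the 9 that were lower by the fold 7 did (77.8%), all but Tnfrsf1b and Irf1. Among all expressed genes the shares were 22.5%, and 53.2% for those lower by the fold. Rps6ka4, which the study singled out as a miR-93 target on these same samples, is among both the 9 and the 7. Irf1 did hold a 7mer-m8 in its shortest annotated 3′ UTR (877 bases). With the shortest 3′ UTRs searched instead, 6 of the 9 pathway genes (66.7%) held a match of 7 or 8 bases. The shares were then 13.5% of all expressed genes and 39% of those lower by the fold. A match of Irak4 (chr15:94580358-94580387, plus strand) and one of Csf1 (chr3:107742083-107742112, minus strand, both GRCm38) are shown beside those of Ikbkb because these genes had larger differences than Ikbkb with a weaker class of match:
Irak4 7mer-A1: tagggcaattcaCACTTTAaggggcttcaa
Csf1 7mer-m8: tttctgcatcttGCACTTTgacattcccag
Both are from the longest 3′ UTRs, and the genes were picked after their values were seen. In the shortest 3′ UTRs, Irak4 held a 7mer-m8 and Csf1 no match. A match is a description of the letters and was not tested as a site in these cells.

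Several of the 10 genes are themselves known targets of NF-kB, whose DNA element was searched for as GGGNNNNNCC on both strands (GGNNNNNCCC on the other strand, overlapping matches included) from 250 bases before to 50 bases after each RefSeq start site (GRCm38.p6). RefSeq windows were matched for 7 of the 10 genes, all but Nfkb1, Relb and Ikbkb, and all 7 held a match. Counted by window, as the shares below are, all 10 windows of these 7 genes held a match. The motif is short, and 16686 of 32851 windows of all genes (50.8%) held it, as did 63.1% of the windows with at least the lowest G and C content of the members' windows (47%). The members' windows reached 75% and the median of all windows was 52.7%, so that cut does not match the content of the members. The windows of 3 feedback genes and regulators are shown around 1 match each, with the matched bases in capitals, to let the letters be compared. The windows hold further matches that are not shown, several of them rich in G and C, and those shown were picked after the matches were seen, for a middle rich in A and T as in the textbook element (Nfkbia, chr12:55492659-55492684, minus strand; Tnip1, chr11:54962980-54963005, minus strand; Nfkb2, chr19:46304690-46304715, plus strand):
Nfkbia: actggcttGGAAATTCCCcgcgcctg
Tnip1: catcatggGGGAATTCCCctcctgcc
Nfkb2: atcgtcacGGGAATTCCCcccctcgg
The log2 differences of these genes were 0.05, -0.18 and -0.09, and none of them passed the fold.

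The labels give the cells as podocytes. Of 10 podocyte markers 6 were expressed, led by Actn4 (219 FPKM with miR-93 and 218 FPKM with NT) and Synpo (158 FPKM in both). Cd2ap had 36.3 FPKM with miR-93 and 42.7 FPKM with NT (log2 -0.23). Wt1 had 2.06 FPKM with miR-93 and 1.42 FPKM with NT (log2 0.51), past the fold, and Podxl 1.66 and 2.33 FPKM (log2 -0.47). Actn4 and Synpo dominate the sum, and the summed level of the 10 was 420 and 425 FPKM. The slit diaphragm gene Nphs1 (0.164 and 0.0387 FPKM) was near 0 and Tcf21 was at 0, so these defining markers were close to absent. Of 7 leukocyte markers, whose cells carry abundant NF-kB components, 2 were expressed (Cd68 and Csf1r), Emr1 and Cd3e were at 0, and the sum was 8.17 FPKM with miR-93 and 6.32 FPKM with NT. None of 4 endothelial markers was expressed (sums of 0.256 and 0.232 FPKM). Of 4 mesangial or fibroblast markers 3 were expressed (sums of 1282.1 and 1061.1 FPKM, nearly all Acta2). Des, the desmin gene, had 1.78 FPKM with miR-93 and 1.02 FPKM with NT (log2 0.75) and was past the fold, while Acta2 (log2 0.28) and Pdgfrb (log2 0.05) were not. Of 5 tubule markers only Aqp1 was expressed (385 and 340 FPKM). The part of these differences in the values of the NF-kB genes was not tested.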

How the data were processed

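RNA was sequenced from 4 libraries in 2 groups. Per the submitters' processing notes, FastQC and Trimmomatic were used for read quality, TopHat2 2.0.4 for alignment to mouse mm9, and Cufflinks and Cuffdiff for assembly and quantification (versions of these not given in the sources used). The deposited FPKM values were normalised by the authors and pooled over the libraries of each group. The table's further columns hold the authors' own fold changes, test statistics, p-values and q-values, and were not used, nor were 4 shorter tables of the 5 deposited.

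From the FPKM values the log2 ratio with a pseudocount of 0.1 FPKM was computed with Python 3.11.15, numpy 2.4.6 and pandas 2.3.3. Rows without a gene name (3650), of several genes (287) or with a name turned into a date (22) and those under a mean FPKM of 1 were left out of the background. The fold of 0.5 on the log2 scale is the one in the study's methods. The study used it with a false discovery rate and a p-value cutoff, which were not applied here. Counts by the fold alone are therefore not the study's calls. Locus starts in the file count from 0 and were written from 1. 3′ UTRs (at least 30 bases) and promoters, both on GRCm38, were matched by gene symbol, and no coordinate was carried between builds. Named genes were the 10 members, every pathway gene past the fold (at most 5 a list), Chuk, Ikbkg, Nfkbib, Rps6ka4 and Rps6ka5, and the cell type markers, of which some are not reported here. C3, Cyld, Tnfrsf1a, Tnf, Cxcl2 and Il6 were added after their values were seen. The members and lists were chosen with earlier results of these data known. The scripts were tested on simulated data. Alternatives varied the pseudocount, centring, floor, fold, 3′ UTR and motif.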

Additional observations from a re-analysis of the deposited data

How the results depend on the processing

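Of 63 alternative values, 57 kept within 0.1 on the log2 scale, or within 1.5 times for counts, 6 moved and none reversed. The 30 alternative log2 differences of the 10 genes all kept within 0.1, although subtracting the median of all rows brought Nfkb2 from -0.09 to 0.00, and the count of members past the fold stayed at 0 under every alternative run. Subtracting that median (-0.09) moves every gene alike by less than 0.1, so those values could not have counted as moved. A higher floor or fold could not have raised the count of members. The number of pathway genes lower by the fold was 9, and became 5 with a floor of 5 FPKM, 15 with a fold of 0.3 on the log2 scale and 0 with a fold of 1. It was 6 once the median of all rows was subtracted, and 8 with a pseudocount of 1 FPKM. The number that were higher was 0, and became 2 with no floor (Icam1 and Csf2, named after their values were seen, both under the floor) and 1 with a fold of 0.3 (C3). The share of all rows past the fold in either direction was 5.65%. It became 4.07% with a floor of 5 FPKM, 4.96% once the median was subtracted and 3.73% with a pseudocount of 1 FPKM. It was 9.47% with no floor, 17.1% with a fold of 0.3 and 1.05% with a fold of 1. How many pathway genes reach a floor of 5 FPKM is not given here. When the shortest 3′ UTR was searched instead, the number of members with a 7- or 8-base match went from 1 to 0, since the shortest Ikbkb 3′ UTR holds neither match. No paired analysis was possible because the table gives 1 pooled value per group, and for the same reason leaving out each library and the replicate block were not run. The pooled FPKM values carry no depth or spread, and the authors' test columns were not used, so the differences of Relb and Ikbkb were not set against the error between libraries here.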
